A study of Homo sapiens with 4 samples.

Results

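Genes for protein phosphatase subunits were taken from a table of N6-methyladenosine (m6A) peaks by their symbols: every gene whose symbol begins with PPP and a digit, with PPM1 or with PTPR, followed by at least 1 more character. The rule used names and no measured value. It took in 227 of the 27678 peaks of the table, in 58 of the 7267 genes with a peak. In the gene annotation 112 protein-coding genes match the rule, so 51.8% of them had a listed peak, where 7247 of 19907 protein-coding genes (36.4%) did. A pair of the members carry the name without being phosphatase subunits of the usual kind. PTPRCAP is a small protein bound to the receptor phosphatase CD45, and PPP1R2P3, called PPP1R2B in the annotation, is an intronless copy of the inhibitor gene PPP1R2, so that reads could be placed on either.

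The material was a human breast cancer cell line, named MDA-MB-231Br (a brain-seeking derivative) in the growth protocol and design text, while the cell line label has MDA-MB-231. Embryos are named as the source in the extraction protocol, in conflict with both. Poly(A) RNA went into 2 libraries of fragments pulled down with an m6A antibody (IP) and 2 libraries of input RNA, with no genotype, drug or time point between them. The deposited table gave 1 IP and 1 input read count per peak with no replicate number, treated as pooled, so no member had a replicate value and no test between libraries was possible. Values below are IP reads per input read of a peak, called the read ratio, with an exact Clopper-Pearson 95% interval that covers counting error only. Library totals were not part of the table, so a read ratio of 1 is not a baseline for enrichment. Where a ratio or interval is set against 1, it tells only which of the 2 read counts was larger. Peaks are otherwise compared with each other. A peak is called IP-rich below when its IP reads were at least 4 times its input reads, and input-rich when its input reads were at least 4 times its IP reads.

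The table gave the member peaks 41297 IP reads and 45729 input reads in all, with overlapping peaks counted anew, and a single member peak held 5 to 2360 IP reads and 0 to 3930 input reads. Every listed peak in the table had at least 5 IP reads, so a gene without a peak may lack the mark, be weakly expressed or lie below the authors' thresholds. As a check on the labelled cells, 7 of 7 mesenchymal and basal markers had a listed peak, among them vimentin with 22234 IP and 6052 input reads in its highest peak. Of 10 luminal and epithelial markers 2 were listed, EPCAM with 7 IP and 0 input reads and GATA3 with 8 IP and 0 input reads, and of 6 neural and embryonic markers only nestin was.

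Protein phosphatases remove phosphate from proteins. The serine and threonine enzymes PP1, PP2A, PP4 and PP6 are a few catalytic subunits shared among many regulatory subunits, which choose the substrate and place in the cell, while calcineurin pairs a catalytic subunit with a calcium-sensing one, the PPM1 enzymes act as single metal-dependent chains and the PTPR genes encode transmembrane tyrosine phosphatases that resemble receptors. m6A is laid down on mRNA by a METTL3-METTL14 complex within a short consensus called DRACH, and reader proteins of the YTH family bind m6A. The most favoured core of DRACH is GGAC, which matches it only where A, C or T follows.

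GGAC was in 30 of 42 IP-rich member peaks that could be placed on a transcript, and in 37 of 72 input-rich ones. The sequences of a few member peaks are shown as examples and do not stand for these classes. The first 3 are whole coding peaks with high ratios of IP to input on few reads, and the fourth is a whole coding peak where input prevails; all are from GENCODE release 29 transcripts (GRCh38), are written 5′ to 3′ on the transcribed strand, and have GGAC in capitals. They come from PPP1R3D, which brings PP1 to glycogen (chr20:59939768-59939877, minus strand, exon 1, 13 IP and 0 input reads), from PPP1R3F, another glycogen-targeting subunit (chrX:49286095-49286234, plus strand, exon 4, 24 IP and 2 input reads), from PPP2R5B, a B56 subunit of PP2A (chr11:64925743-64925842, plus strand, exon 2, 46 IP and 3 input reads), and from PPP4R3A, a PP4 subunit (chr14:91462113-91462232, minus strand, exon 13, 5 IP and 140 input reads). Here and below, capitals mark GGAC whatever base follows. The PPP2R5B peak has its GGAC before a g and holds no DRACH, while the PPP4R3A peak holds 3 DRACH matches.
PPP1R3D: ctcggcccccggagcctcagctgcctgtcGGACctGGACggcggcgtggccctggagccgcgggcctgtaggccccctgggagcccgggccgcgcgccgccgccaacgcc
PPP1R3F: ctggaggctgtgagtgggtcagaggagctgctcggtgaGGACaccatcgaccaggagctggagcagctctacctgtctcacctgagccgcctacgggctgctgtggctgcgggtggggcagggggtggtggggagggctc
PPP2R5B: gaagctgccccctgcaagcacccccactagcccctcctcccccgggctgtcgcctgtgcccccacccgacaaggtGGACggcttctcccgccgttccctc
PPP4R3A: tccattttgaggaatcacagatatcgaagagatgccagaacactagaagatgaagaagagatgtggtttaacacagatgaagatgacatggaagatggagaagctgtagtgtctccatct

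Some other members had their richest peak at the start of the transcript. Those of PPP2CB (158 IP and 14 input reads) and PPP2R3A (23 and 0) hold no GGAC. Several members, PPP4C and PPP2R5B among them, had a lower interval bound of at least 4 in a start peak that holds GGAC. For 4 others of this kind, 30 bases around the first match are shown as examples. These are PPP1R11, an inhibitor of PP1 (chr6:30067171-30067200), PTPRF, the receptor phosphatase LAR (chr1:43530985-43531014), PPP2R1A, the main scaffold of PP2A (chr19:52190071-52190100), and PPP2R5A, a B56 subunit (chr1:212285615-212285644), all on the plus strand of GRCh38 in exon 1.
PPP1R11: aagggaaaaagggGGACtgcagtatgcgtc
PTPRF: ggtggcgggagcgGGACcaggtggaggcgg
PPP2R1A: tctgacaggaaagGGACggagccaagatgg
PPP2R5A: agtggctccgaggGGACccgcgatggcagc

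Across the phosphatase genes IP reads exceeded input reads in 101 of 227 peaks (44.5%), where they did in 40.5% of all peaks. IP-rich peaks numbered 43 (18.9%), against 17.2% of all peaks, and input-rich peaks 72 (31.7%), against 30.3%. The median member peak had 37 IP and 113 input reads and a read ratio of 0.714, with quartiles at 0.146 and 2.64. The median of all peaks was 32 IP and 67 input reads and a ratio of 0.640. The shares of the phosphatase genes were thus near those of the whole table. The interval for counting error lay at or above 1 in 74 member peaks and at or below 1 in 113, and held 1 in the other 40. Intervals were not counted over all peaks, so these counts have no share of the whole table beside them.

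Counted by gene, 27 of the 58 members (46.6%) had an IP-rich peak, where 43.5% of all genes with a peak did. A further 20 had a highest ratio above 1 and below 4, and 11 had no peak in which IP reads exceeded input reads. Neither this split nor the interval count that follows was made over all genes. The median over genes of the highest ratio was 3.05 in members and 3.0 in all genes with a peak. The lower interval bound reached 4 in 10 of the 27, which were PPP1R10, PPP1R11, PPP1R12B, PPP2CB, PPP2R1A, PPP2R3A, PPP2R5A, PPP2R5B, PPP4C and PTPRF. Just above the threshold among peaks with at least 50 reads were a PPM1B peak at 4.05 and PPP2R1A peaks at 4.28 and 4.39. Just below it were a PPP1R7 peak at 3.62 and PPP2R5D peaks at 3.69 and 3.82.

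**Figure D1:**
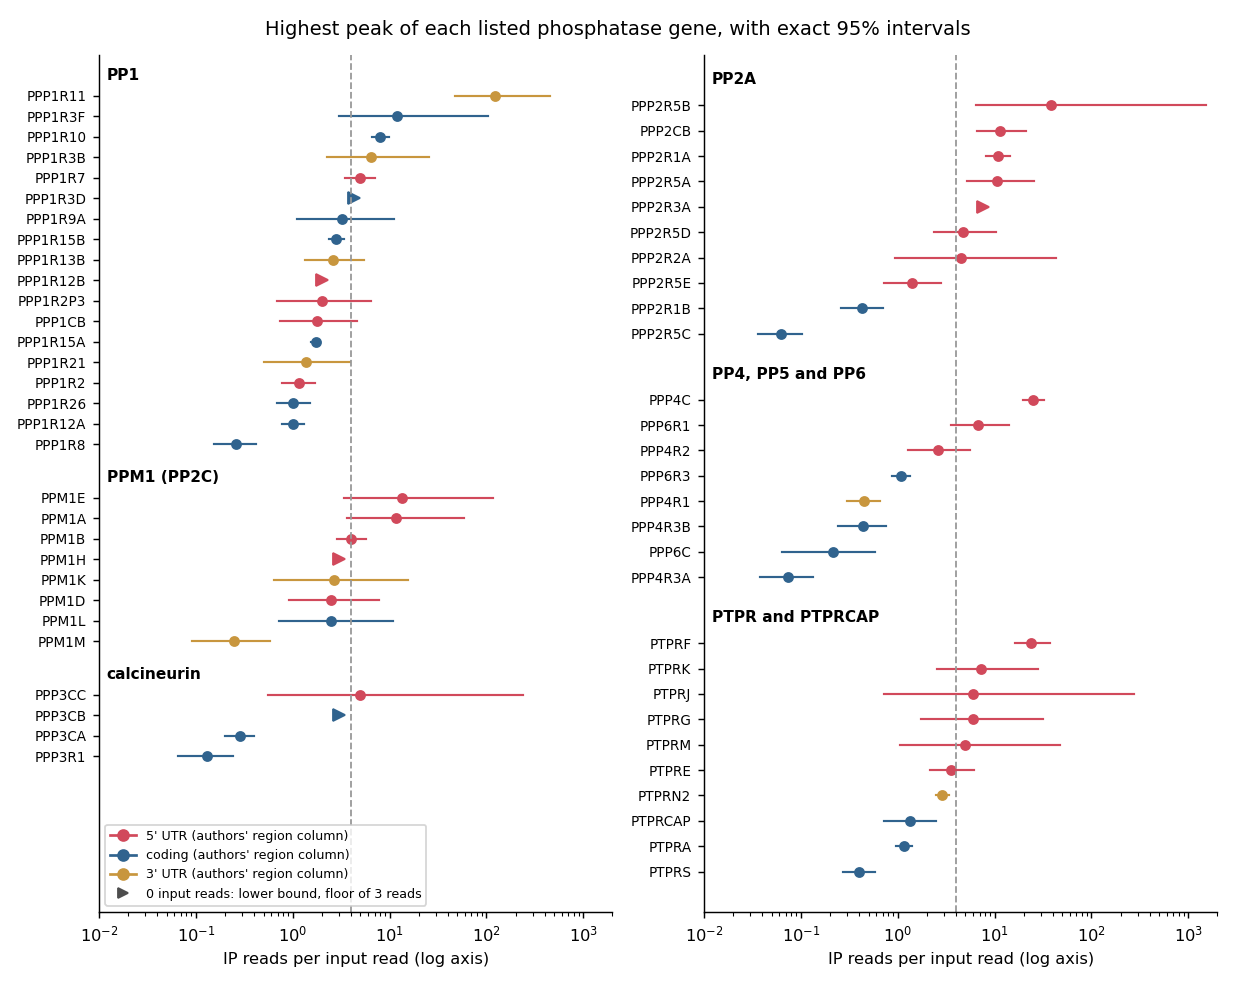
IP reads per input read (log axis) of the peak with the highest ratio in each of the 58 phosphatase genes, grouped by enzyme family, with exact 95% intervals for counting error. Genes whose peak had 0 input reads are drawn at the bound that a floor of 3 input counts gives, and the values run from 0.0627 in PPP2R5C to 122.5 in PPP1R11. Colours give the authors' region, the dashed line marks a ratio of 4, and PPP1R12B is placed by its peak with 6 IP and 0 input reads.

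Catalytic subunits were unevenly represented. PPP1CA, PPP1CC, PPP2CA and PPP5C, which encode catalytic chains of PP1, PP2A and PP5, had no listed peak. PPP4C, the catalytic chain of PP4, had the highest ratio among the catalytic genes whose peaks held input reads, with 1751 IP and 70 input reads in the 5' UTR (chromosome 16, 30076017 to 30076466) and a ratio of 25.01 (interval 19.7 to 32.2). Along the gene its ratios were 13.7, 8.77 and 1.38 in the next 3 peaks. The peaks over exons 5 to 7 and 7 to 8 had 27 IP against 158 input reads (0.171) and 55 against 320 (0.172). The peaks at 1.38 and 0.171 were placed on another transcript than the rest, so these exon numbers do not form 1 series. The IP reads of PPP4C were thus concentrated over exons 1 to 4, while its input reads were most numerous at the 3' end.

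PPP2CB, the second PP2A catalytic gene, had a single listed peak with 158 IP and 14 input reads in the 5' UTR, a ratio of 11.3 (6.53 to 21.1). PPP1CB, the beta catalytic chain of PP1, had 16 IP and 9 input reads in its first peak (1.78, interval 0.740 to 4.56), then 195 and 160, 70 and 168, and 5 and 354. Its lowest ratio was thus 0.0141, over exons 4 to 6, a peak whose span also holds exons of SPDYA. PPP6C, the catalytic chain of PP6, had 5 IP and 23 input reads in its single peak, a ratio of 0.217 with an interval below 1.

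The calcineurin genes had few reads where IP prevailed. PPP3CB had 9 IP and 0 input reads at the start of the transcript, at least 3-fold against the floor of 3 counts, in a stretch that also holds an exon of the opposite-strand gene PPP3CB-AS1. PPP3CC had 5 IP and 1 input reads at its start, with an interval of 0.560 to 236.5 that gives little precision. Elsewhere in these genes input prevailed. PPP3CB had 7 IP and 219 input reads in its other peak, PPP3CC 6 and 255 in its last, PPP3CA 43 and 151, and the calcium-binding subunit gene PPP3R1 12 and 91. The PPP3CA peak spans an intron of 150622 nt.

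Among regulators and targets of PP1, 18 of 45 annotated genes of the family (40%), PPP1CB included, had a listed peak, a share near the 36.4% of all protein-coding genes. IP reads exceeded input reads in 37 of the 53 PP1 family peaks (69.8%, against 40.5% of all peaks), and 12 (22.6%, against 17.2%) were IP-rich, with a family median ratio of 2.06. PPP1R11 had 490 IP and 4 input reads in its first peak (chromosome 6, 30067088 to 30067357), a ratio of 122.5 (47.5 to 451). This was the highest member ratio with input reads. Its next peak in exon 1 had 729 IP and 98 input reads (7.44), and its 2 peaks in exon 3 had 487 IP reads each with 150 and 153 input reads. The authors' region column calls all 4 peaks 3' UTR, while the annotation places the midpoint of the first in the 5' UTR.

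PPP1R10, which holds PP1 in the nucleus, had its highest ratio inside the coding sequence, with 982 IP and 122 input reads over exons 12 and 13 (8.05, interval 6.66 to 9.80). A second stretch at exons 1 and 2 had 337 IP and 71 input reads (4.75). Its largest peak by reads, with 1189 IP and 1709 input reads, runs upstream past the annotated start of the gene across exons of ATAT1, MRPS18B and PTMAP1 on the other strand, so its reads cannot be assigned to PPP1R10. PPP1R12B, a myosin-targeting subunit, had 6 IP and 0 input reads at its start, 285 and 39 over exons 10 to 12 (7.31), and 267 and 2394 across exons 14 and 15 (0.112). An overlapping entry repeats each of the last 2 stretches with the same or nearly the same reads, and all 4 spans hold exons of unnamed genes.

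The glycogen-targeting genes of PP1 had high ratios on few reads. PPP1R3D had 13 IP and 0 input reads, at least 4.33-fold against the floor, and 23 and 3 in a neighbouring peak (7.67). PPP1R3F had 24 and 2 (12.0, interval 2.98 to 105) and PPP1R3B 26 and 4 in the 3' UTR (6.50, interval 2.26 to 25.6). The stress regulators that direct PP1 to the initiation factor eIF2 alpha were deeply covered in coding exons and had ratios under 4. PPP1R15A (GADD34) had 904 IP and 524 input reads (1.73, interval 1.55 to 1.93), and PPP1R15B had 497 and 177 (2.81, interval 2.36 to 3.35). PPP1R8, a nuclear inhibitor of PP1, was the lowest of the family with 22 IP and 84 input reads in its highest peak (0.262).

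The other PP1 members lay nearer equal reads or on few of them. The myosin-targeting subunit PPP1R12A had 123 IP and 122 input reads in its highest peak (1.01), the inhibitor PPP1R2 61 and 53 (1.15), its copy PPP1R2P3 12 and 6 (2.0), and PPP1R26 55 and 54 (1.02). PPP1R13B (ASPP1), a p53-binding regulator, had 34 and 13 (2.62), the neuronal scaffold gene PPP1R9A 16 and 5 (3.20), and PPP1R21 11 and 8 (1.38).

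PPP1R7 (SDS22), a regulator that binds PP1, had 9 overlapping or adjoining peaks whose ratio was lowest in the middle of the transcript. It had 201 IP and 41 input reads over exons 1 and 2 (4.90), 5 and 107 over exons 7 and 8 (0.0467), and 107 and 52 over exons 9 and 10 (2.06). Input reads varied between 41 and 107 over these 9 peaks, a narrower range than the 5 to 282 of the IP reads.

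**Figure D2:**
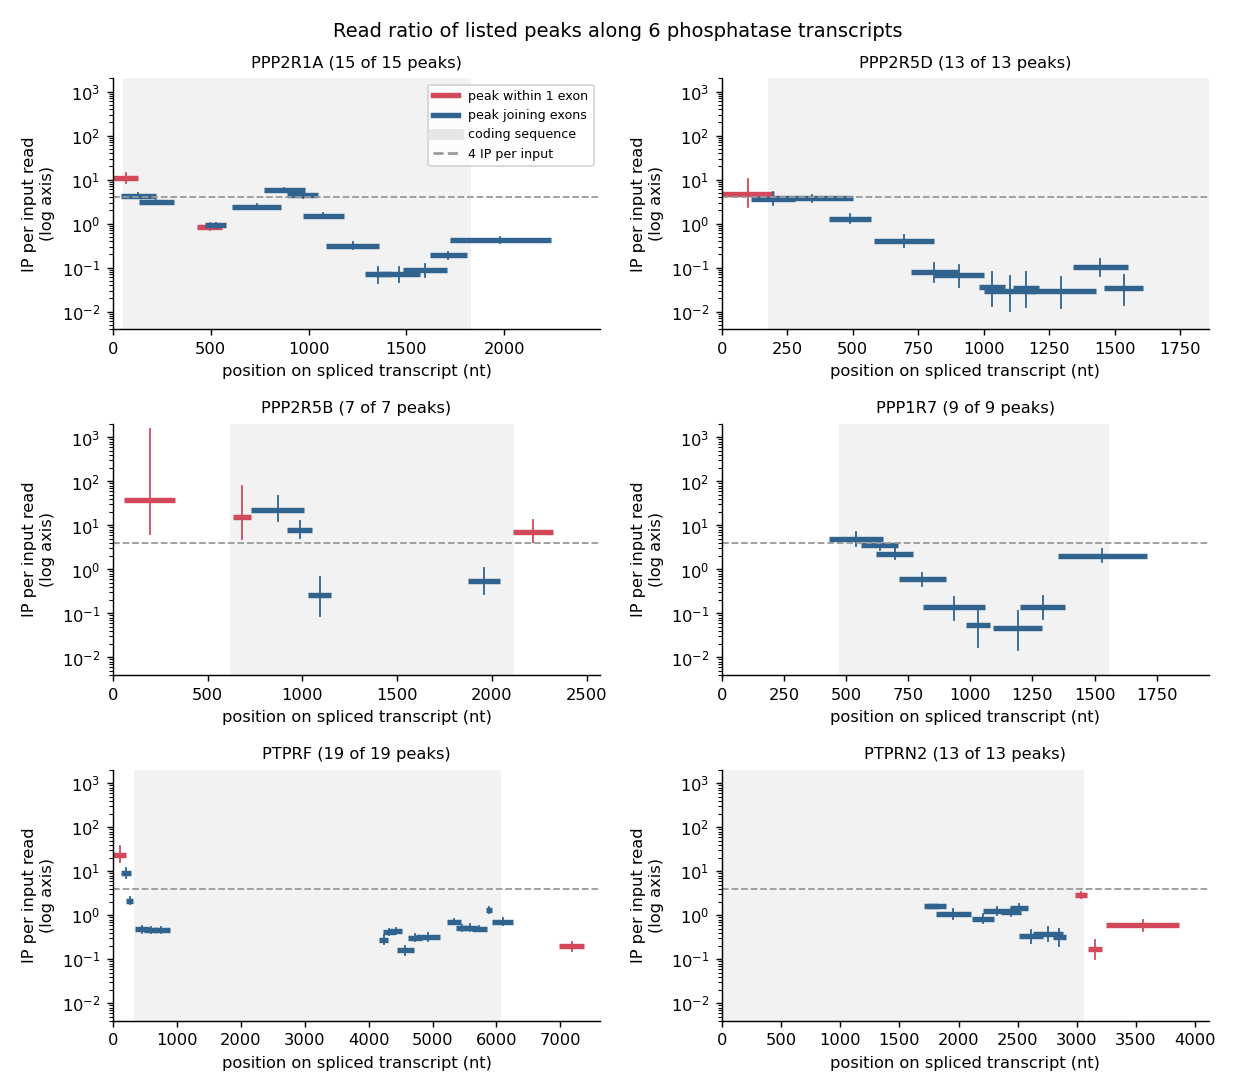
IP reads per input read (vertical, log axis) along the spliced transcript (horizontal, nt from its 5' end) of PPP2R1A, PPP2R5D, PPP2R5B, PPP1R7, PTPRF and PTPRN2. Each thick bar is a listed peak, red within 1 exon and blue joining exons, thin lines are exact 95% intervals for counting error, shading marks coding sequence and the dashed line a ratio of 4. The highest ratio lies at the 5' end in all of these but PTPRN2, and PPP2R1A has a second high stretch, at 5.88, inside the coding sequence.

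PP2A genes had an IP-rich share of 14 of 48 peaks (29.2%, against 17.2% of all peaks), in 7 of 10 listed genes (43.5% of all genes with a peak had one), although overlapping peaks of a few genes make up many of these. PPP2R1A, the alpha scaffold, was covered by 15 peaks. At its start there were 604 IP and 56 input reads (10.8, interval 8.19 to 14.5), in exon 4 there were 236 and 277 (0.852), over exons 6 and 7 there were 2051 and 349 (5.88, interval 5.24 to 6.6), and over exons 10 and 11 there were 25 and 356 (0.0702). Input reads in the last 3 of these stretches were within 277 to 356, so the ratios differ mostly in their IP reads.

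The B56 subunits, which choose PP2A substrates, ranged from the lowest to nearly the highest of the members. PPP2R5B had 38 IP and 1 input reads in exon 1 (38.0, with a wide interval of 6.42 to 1540), 46 and 3 in exon 2 (15.3), 250 and 11 over exons 2 and 3 (22.7, interval 12.5 to 46.1) and 215 and 27 over exons 3 and 4 (7.96). It then had 6 and 23 over exons 4 and 5 (0.261), and 107 and 15 in the last exon (7.13). PPP2R5A had 85 and 8 in exon 1 (10.6, interval 5.15 to 25.4) and 105 and 938 in the overlapping peak that joins exon 1 to exon 2 (0.112). The span of that joining peak holds 42843 nt of intron and exons of other genes.

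Other B56 genes had lower ratios. PPP2R5D had 47 IP and 10 input reads at its start (4.70, interval 2.34 to 10.4), ratios of 3.69 and 3.82 in the next 2 peaks, and ratios of 0.0291 to 0.401 in 9 coding peaks from exon 4 on, the lowest with 6 and 206 reads. PPP2R5E had 24 and 17 in its highest peak (1.41), and PPP2R5C had 15 and 338 and 17 and 271 in its 2 peaks (0.0444 and 0.0627), the lowest highest ratio of any member. Both PPP2R5C peaks join exons, across 57005 and 37600 nt of intron, and both spans hold exons of other genes. Of the remaining PP2A genes, PPP2R3A, a calcium-binding B'' subunit, had 23 IP and 0 input reads in exon 1, at least 7.67-fold against the floor. PPP2R2A, a B55 subunit, had 9 IP and 2 input reads (4.5, interval 0.931 to 42.8). The beta scaffold PPP2R1B had 25 IP and 58 input reads in its highest peak (0.431).

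In the PP4, PP5 and PP6 family, with the peaks of PPP4C and PPP6C included, 10 of 32 peaks (31.2%, against 40.5% of all) had more IP than input reads, and the family median ratio was 0.440. PPP6R1, a PP6 subunit, had 74 IP and 11 input reads in exon 1 (6.73, interval 3.55 to 14.1), and its other 3 peaks had ratios of 0.842 to 1.76. PPP6R3, another PP6 subunit, had 173 and 160 in its highest of 5 (1.08). PPP4R2, a core PP4 subunit, had 31 and 12 at its start (2.58) and 8 and 140 over exons 2 and 3 (0.0571), a span that also holds exons of GXYLT2. The other PP4 subunits had no peak with IP above input. PPP4R1 had 40 and 90 in its highest of 6 peaks (0.444), PPP4R3B had 20 and 46 (0.435), and PPP4R3A had 12 and 162 in its highest of 4 (0.0741).

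PPM1 phosphatases were listed for 8 of 12 annotated genes (66.7%, against 36.4% of all), and 5 of their 21 peaks (23.8%, against 17.2% of all) were IP-rich. PPM1E, a phosphatase of PAK and AMP-activated kinases, had 27 IP and 2 input reads in exon 1 (13.5, interval 3.39 to 117). PPM1A, which acts on stress kinases and SMAD proteins, had 35 and 3 in exon 1 (11.7, interval 3.68 to 59.3) and 22 and 219 in the peak that joins exon 1 to exon 2 (0.10). Its 5 further peaks had 5 to 13 IP reads and 68 to 255 input reads, with ratios of 0.0235 to 0.102. PPM1B had 178 and 44 (4.05, interval 2.89 to 5.76), PPM1H 9 and 0 (at least 3-fold against the floor), PPM1K, a mitochondrial phosphatase, 8 and 3 (2.67), PPM1L 10 and 4 (2.50), and PPM1D (WIP1, a p53 pathway phosphatase) 15 and 6 (2.50, interval 0.917 to 7.86). The lowest was PPM1M, with 7 IP and 28 input reads (0.250).

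Receptor tyrosine phosphatase genes were IP-rich in 6 of 66 peaks (9.09%, against 17.2% of all), in 5 of 10 listed genes (43.5% of all genes with a peak had one), and a median ratio of 0.486. PTPRF, which acts at cell contacts, had the most peaks of any member, 19. Its first 3 had 599 IP and 25 input reads (23.96, interval 16.1 to 37.3), 676 and 75 (9.01) and 366 and 171 (2.14). In its 15 coding peaks the ratios ran from 0.160 to 1.32, and the 3' UTR peak had 83 and 416 (0.200, interval 0.156 to 0.253). Input reads were 25 to 171 in the 3 leading peaks and 325 to 636 in the rest, so both counts moved the ratio of PTPRF.

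PTPRG and PTPRM had the same layout on fewer IP reads. PTPRG, a tyrosine phosphatase with a carbonic anhydrase-like domain, had 18 IP and 3 input reads in exon 1 (6.0, interval 1.75 to 31.8). The adjoining peak across an intron of 186505 nt had 235 and 3930 (0.0598, interval 0.0522 to 0.0682), the most input reads of any member peak, and its span also holds exons of RF00019 and RPL10AP6 on the other strand. That peak carried an FDR of 0 in the authors' deposited table, so a strong authors' value was also attached to a stretch where input prevailed. PTPRG also had 86 IP and 34 input reads within exon 12 (2.53). PTPRM, a homophilic adhesion phosphatase, had 10 and 2 in exon 1 (5.00) and ratios of 0.0444 to 0.776 in 8 other peaks.

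PTPRN2, a phosphatase-like protein of secretory vesicles, had its deepest peaks across long introns, of 215735 nt and, in an overlapping peak, 398295 nt in all. They had 2360 IP and 1487 input reads (1.59, interval 1.49 to 1.70) and 2359 and 1447 (1.63), and its highest ratio was in the last exon, with 730 and 252 (2.90, interval 2.51 to 3.36). The same exon held 2 other peaks in which input prevailed, with 77 and 129 (0.597) and 21 and 124 (0.169). The spans of both long-intron peaks hold exons of unnamed genes, and the place of the reads inside a span is not part of the table. Of the rest, PTPRK had 29 and 4 (7.25, interval 2.55 to 28.4) in a peak that could not be placed on a transcript. This was its only IP-rich peak, and its peak within exon 1 had 14 and 14. PTPRJ had 6 and 1 (6.0, interval 0.728 to 276), PTPRE 75 and 21 (3.57), and PTPRA 233 and 199 (1.17). PTPRS had 42 IP and 105 input reads (0.40), and PTPRCAP had 28 and 21 (1.33) in a span that also holds exons of CORO1B on the same strand.

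**Figure D3:**
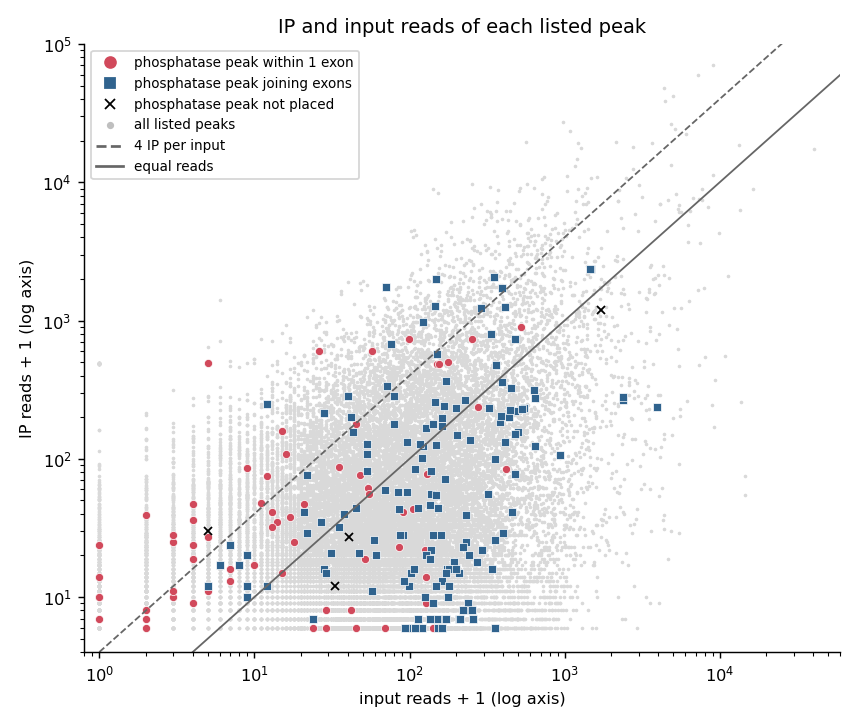
IP reads + 1 (vertical, log axis) against input reads + 1 (horizontal, log axis) of the 227 phosphatase peaks, drawn red within 1 exon, blue joining exons and as crosses where not placed, over all listed peaks in grey. The solid line marks equal reads and the dashed line 4 IP reads per input read, and most blue points lie below the solid line, with a median of 43 IP and 148 input reads.

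The listed peak nearest the 5' end had the highest ratio in many members. Such a peak need not lie at the start of the transcript, as in PPM1M (3' UTR) and PPP1R8 (exon 7). Some of these peaks held few reads, as in PPP3CC with 5 IP and 1 input reads. Of 41 phosphatase genes with 2 or more peaks, the peak nearest the 5' end was the highest in 28 (68.3%), where it was in 59.0% of 5377 genes of the whole table, and the peak nearest the 3' end was the highest in 10 (24.4%, against 20.4%). The 46 member peaks that the authors placed in the 5' UTR had a median ratio of 4.16 (all 5' UTR peaks 2.56), the 158 coding ones 0.432 (all 0.493) and the 23 in the 3' UTR 1.13 (all 0.489). The 3' UTR median rests on that column. When peaks were placed by their midpoint in the annotation, the 19 member peaks in the 3' UTR had a median ratio of 0.444, against 0.462 for all.

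In 15 of the 41 members with 2 or more peaks, an IP-rich peak and an input-rich peak were both listed. The same was not counted over all genes of the table, so it cannot be called particular to the phosphatase genes. The widest ranges among peaks of at least 50 reads, on the scale of log2((IP + 1)/(input + 1)), were 7.19 in PPP2R1A, 7.16 in PTPRF, 7.14 in PPP4C, 7.01 in PPP2R5D and 6.44 in PPP1R7. Each of these genes thus had ratios on both sides of 1.

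Whether a peak lay within 1 exon or joined exons moved with the ratio. Of 223 member peaks that could be placed on a transcript, 156 (70.0%) joined exons, against 63.5% of all placed peaks. The 67 within 1 exon had a median ratio of 2.67, with 28 (41.8%) at 4 or above, where all such peaks had a median of 1.49 and 30.6% at 4 or above. The 156 joining exons had a median of 0.432, with 14 (8.97%) at 4 or above, where all such peaks had 0.433 and 9.33%. Within the 28 genes that had both kinds, the median of the single-exon peaks was higher in 23 (82.1%, against 73.3% of 3872 genes of the table).

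The 2 kinds differed more in input than in IP reads. Member peaks within 1 exon had a median of 11.8 IP and 6.67 input reads per 100 nt of spliced peak, and those joining exons had 22.5 IP and 91.2 input reads per 100 nt. Over all peaks the medians were 11.4 IP and 12.2 input reads within 1 exon, and 20 and 56.5 joining exons. These densities divide by the spliced length, and whether the counts of peaks that join exons include reads in the introns is not given in the sources used here. The 14 member peaks whose span held over 50 kb of intron had a median ratio of 0.0731, and none reached 4. Peaks within 1 exon made up 24 of the 46 5' UTR peaks but 25 of the 158 coding ones, so region and layout moved together. Within 1 exon the median ratio was 6.0 in the 5' UTR (all 5.0) and 1.73 in coding sequence (all 1.29), and among peaks joining exons it was 1.31 (all 1.04) and 0.391 (all 0.383). The part of the layout in the family differences was not tested; the joining share was 79.7% in PTPR, 84.4% in PP4, PP5 and PP6, 77.1% in PP2A, 54.9% in PP1 and 38.1% in PPM1.

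**Figure D4:**
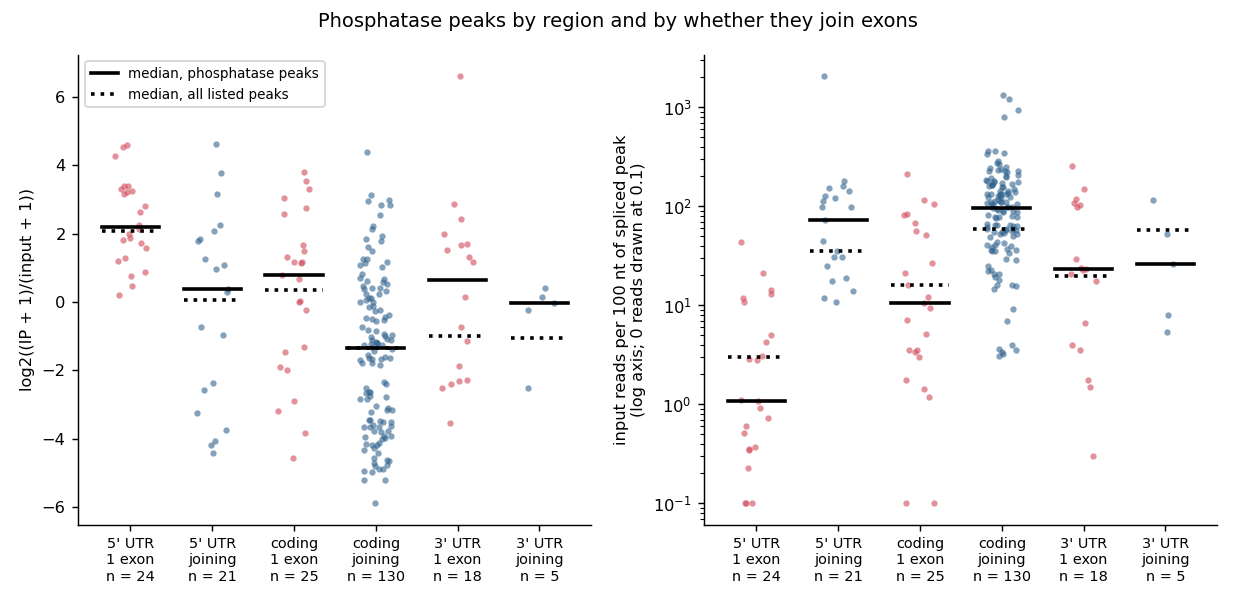
Read ratio on the log2((IP + 1)/(input + 1)) scale (left) and input reads per 100 nt of spliced peak on a log axis (right) of phosphatase peaks by the authors' region and by layout, within 1 exon (red) or joining exons (blue). Each point is a peak, solid lines are medians of the phosphatase peaks and dotted lines those of all listed peaks, and peaks with 0 input reads are drawn at 0.1 on the right. In the 5' UTR and in coding sequence the median ratio is higher within 1 exon, and the median input is lower.

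Base composition and the GGAC core moved with the ratio as well. GGAC was searched on the transcribed strand only, in spliced sequence. It was present in 137 of 223 placed member peaks (61.4%, against 63.4% of all placed peaks), at 0.527 per 100 nt (all 0.545). It was in 30 of 42 placed IP-rich member peaks (71.4%), at 0.667 per 100 nt, and in 37 of 72 input-rich ones (51.4%), at 0.368 per 100 nt. The same classes of the whole table had 75.3% and 54.1%, so the phosphatase genes lay near the general pattern. Median GC was 66.9% in the richer class and 50.3% in the poorer one, and the part of GC in the motif counts was not tested. DRACH, which includes GGAC where A, C or T follows, was in 206 member peaks (92.4%, against 95.3% of all). A match to these letters is a description and not a methylated site.

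By region, GGAC was in 31 of the placed 5' UTR peaks of members (68.9%, all 69.2%), in 99 coding ones (63.9%, all 62.3%) and in 7 3' UTR ones (30.4%, all 61.7%). The low 3' UTR share rested on 23 peaks and was 47.4% of 19 when peaks were placed by midpoint, against 63.8% of all.

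Other genes overlapped some members. The span of 34 member peaks, in 19 genes, held exons of another gene, and 30 of these peaks joined exons. Without them IP exceeded input in 88 of 193 peaks and 39 peaks in 25 genes were at 4 or above, so the counts over members did not turn on them. Members on the plus strand held 162 peaks (71.4%, against 65.2% of all). Whether reads were counted by strand is not given in the sources used here.

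Related genes outside the symbol rule can be set beside the whole table, in which 36.4% of protein-coding genes were listed and 17.2% of peaks were IP-rich. Of 58 other phosphatase genes, such as the PTPN, DUSP, CTD and slingshot families, 36 were listed (62.1%), with more IP than input reads in 56 of 144 peaks (38.9%, against 40.5% of all) and 20 peaks (13.9%) in 13 genes at 4 or above. Their highest peaks included CTDP1, a phosphatase of the RNA polymerase II tail, with 1086 IP and 33 input reads (32.9), and PTPN11 (SHP2) with 1400 and 68 (20.6). Of 49 genes for phosphatase partners under other names 36 were listed (73.5%), with IP above input in 66 of 178 peaks (37.1%) and 23 (12.9%) in 15 genes at 4 or above. The PP2A inhibitor SET had 1302 IP and 216 input reads (6.03), the PP1-binding scaffold SCRIB 820 and 57 (14.4), and the PP2A inhibitor CIP2A 13 and 83 (0.157).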

How the data were processed

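Per the file headers, each row of the deposited table is a peak with its gene, position, region, input and IP read counts, p-value, FDR and score. The deposited counts are whole reads per peak, with 1 column for 2 IP and 1 for 2 input libraries, and were treated as the authors' pooled values. The deposited p-value, FDR and score are the authors' own and were not used as tests. HISAT2, HOMER and the GRCh38 (hg38) build are named in the submitters' processing notes, with no version or role; peak calling is otherwise not given in the sources used here.

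Of 27855 entries, 177 repeated a gene and coordinates and were dropped, none of them a member. Ratios were IP over input reads; medians used log2((IP + 1)/(input + 1)) where stated, with a pseudocount of 1, and a count of 0 was replaced by a floor of 3 counts for lower bounds. Peaks with 0 input reads count as IP-rich (4 IP reads or more per input read), though their bound can lie below 4. Peaks were placed on GENCODE 29 transcripts where both ends fell in exons and the length without introns was divisible by 10 nt. Steps ran in Python 3.11.15 with pandas 2.3.3, numpy 2.4.6 and scipy 1.17.1 and were tested on simulated data. The members and lists were chosen with earlier results of these data known. Full values were given for catalytic subunits, the 10 highest members with at least 50 reads, peaks with 0 input, the 5 genes with most peaks, each family's highest and lowest, and, among peaks with at least 50 reads, the 5 lowest, the 3 peaks on either side of the threshold and the 5 widest ranges; other named members are examples chosen after their values were seen. Alternatives on exon layout, overlapping genes and the 2 members that are not usual subunits were added after seeing the data.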

Additional observations from a re-analysis of the deposited data

How the results depend on the processing

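No paired analysis was possible because the read columns carry no replicate number, and no library could be left out because the counts are pooled. Of the alternatives run on the counts and medians of the phosphatase peaks, 44 were labelled the same, 18 moved and 6 reversed in sign. The limits between the same and moved are not given here, so these labels are only a rough guide to the values below. Peaks with IP above input (101) numbered 60 when overlapping peaks were reduced to the deepest one (126 peaks left), 49 of 67 within 1 exon and 51 of 156 joining exons. Peaks at 4 or above (43) numbered 26 with overlaps reduced, 73 at a 2-fold and 21 at an 8-fold threshold, 20 by the lower bound, 28 within 1 exon and 14 joining exons. Genes at 4 or above (27) numbered 16 at 8-fold, 10 by the lower bound and 7 by peaks joining exons. Peaks with GGAC (137) numbered 30 among those at 4 or above and 76 with overlaps reduced, and 206 held DRACH; these counts follow from fewer peaks or from a wider or stricter rule. The median log2 ratio (-0.48) was 2.15 with the authors' score, 1.52 with the highest peak of each gene, 1.32 within 1 exon and -1.19 joining exons. Every member score was above 1, so the median of its log2 could not be negative. Taking the highest peak of each gene favours higher values by its rule. Neither sign change is thus a check on the median. The difference of medians between 5' UTR and coding peaks (2.99) was 0.78 with the score and 1.40 within 1 exon, and had the same sign under every alternative run. That between 3' UTR and coding peaks (1.34) was -0.30 with the score, -0.20 by midpoint and -0.12 within 1 exon; for the score and the exon layouts the cause was not tested. The score is infinite in 9 member peaks, left out there. Counting error is largest in peaks with the fewest input reads, such as PPP2R5B with 1, whose interval runs from 6.42 to 1540.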
